A study of Homo sapiens with 12 samples.

Results

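The endoplasmic reticulum (ER) oxidase Ero1α, in a form that lacks part of its own regulation, was induced for 24 h in human cells, and RNA levels were compared with those of the same cell line without induction. The comparison rests on 6 of the 12 arrays of the series, the 3 labelled Ero1-C104A/C131A induced and the 3 labelled Ero1-C104A/C131A non-induced, chosen by their titles. All 32321 probe sets were tested. A probe set is a group of array probes read as 1 value, and the value is a log2 level from RMA, a procedure that corrects background, equalises the probe distributions of the arrays and summarises the probes. A difference of 1 is a doubling, and each fold below is the ratio of the induced over the uninduced mean on that scale. The 95% intervals are not adjusted for the number of tests.

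The cells were HEK 293 Flp-In T-REx, a human embryonic kidney line with 1 genomic landing site for a transgene and a repressor that keeps the transgene promoter off until doxycycline is added. The C104A/C131A line carries Ero1α-C104A/C131A as its stable transgene, in which 2 cysteines are replaced by alanine. The other 6 arrays come from the WT line, which carries Ero1α-WT and was likewise left uninduced or induced for 24 h (3 arrays each). Cells of all 4 groups grew in medium with serum, hygromycin B and blasticidin, and their own ERO1A gene was present beside the transgene. The labels do not say whether a line is 1 clone, and no doxycycline-treated cells without a transgene were analysed here, so an effect of the drug and one of the transgene cannot be told apart.

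Secreted and membrane proteins enter the ER unfolded and receive their disulfide bonds there. Protein disulfide isomerases hand disulfides to their clients, Ero1α reoxidises the isomerases with molecular oxygen, and each such cycle yields hydrogen peroxide. Regulatory disulfides switch the enzyme off when the lumen is oxidised enough, and the replaced cysteines take part in them, so the C104A/C131A form is a deregulated, more active oxidase. When folding in the ER is disturbed, the sensors IRE1, PERK and ATF6 start the unfolded protein response, which raises chaperones, folding enzymes and degradation factors through the transcription factors XBP1, ATF6 and ATF4. The chaperone BiP, encoded by HSPA5, binds unfolded chains and holds the sensors inactive in resting cells.

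The 12 arrays were alike in scale, with medians of 6.36 to 6.43, and over all probe sets the arrays of a group had pairwise correlations between 0.992 and 0.996. Once group means were subtracted, the leading principal component held 24.9% of the remaining variance, and its extreme arrays were WT uninduced array A and C104A/C131A induced array B, so the main counts are also given without both. The replicates are labelled biological, without a word on what separates them. Of 5 genes usually high in HEK 293 cells, 4 lay above the median of all genes, and the array means of the 5 were 9.44 to 9.57 log2. Marker lists of leukocytes, endothelium, fibroblasts and differentiated kidney had means of 4.69 to 5.97 log2 on every array of the line. In that order, 1 of 5, 0 of 5, 1 of 6 and 1 of 6 measured genes lay above the median of all genes. The highest, a leukocyte marker, had group means of 8.559 uninduced and 8.675 induced. Of the 27 measured markers, the 5 of HEK 293 included, 0 passed the test. RNA came from whole cultures, so a change in a share of the cells and a change in every cell cannot be told apart.

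ERO1A checked the labels. Its log2 level was 10.15, 10.05 and 10.14 on uninduced arrays A, B and C and 12.49, 12.52 and 12.62 on induced arrays A, B and C. The groups stood far apart, and ERO1A rose 5.38-fold (95% interval 4.86 to 5.96, log2 change 2.43 ± 0.07, SE, adjusted p = 8.71e-08, limma). Endogenous and transgene RNA are not separated by this probe set.

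On induction of the mutant oxidase a small set of mostly ER genes rose, and 1 gene fell. HERPUD1, which recruits the ER degradation machinery at the membrane, rose 2.57-fold, BiP (HSPA5) 2.20-fold, the BiP partner SDF2L1 2.16-fold and the disulfide isomerase PDIA4 2.08-fold. In all, 56 probe sets, 0.173% of those tested, passed an adjusted p of 0.05 in limma, 55 upward (0.17%) and 1 downward (0.00309%), with a change of 1.5-fold or more in 21. At an unadjusted p under 0.05 there were 1858 probe sets, 923 higher and 935 lower, where 1616 would be expected by chance, and the median log2 change of all probe sets was -0.005. The passing probe sets comprise 45 with 1 gene symbol, 2 with several symbols and 9 with none. They name 44 genes, 0.239% of 18404, since P4HB is read by 2 probe sets: ERO1A, 42 other genes that rose and ARHGDIA, which fell.

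**Figure D1:**
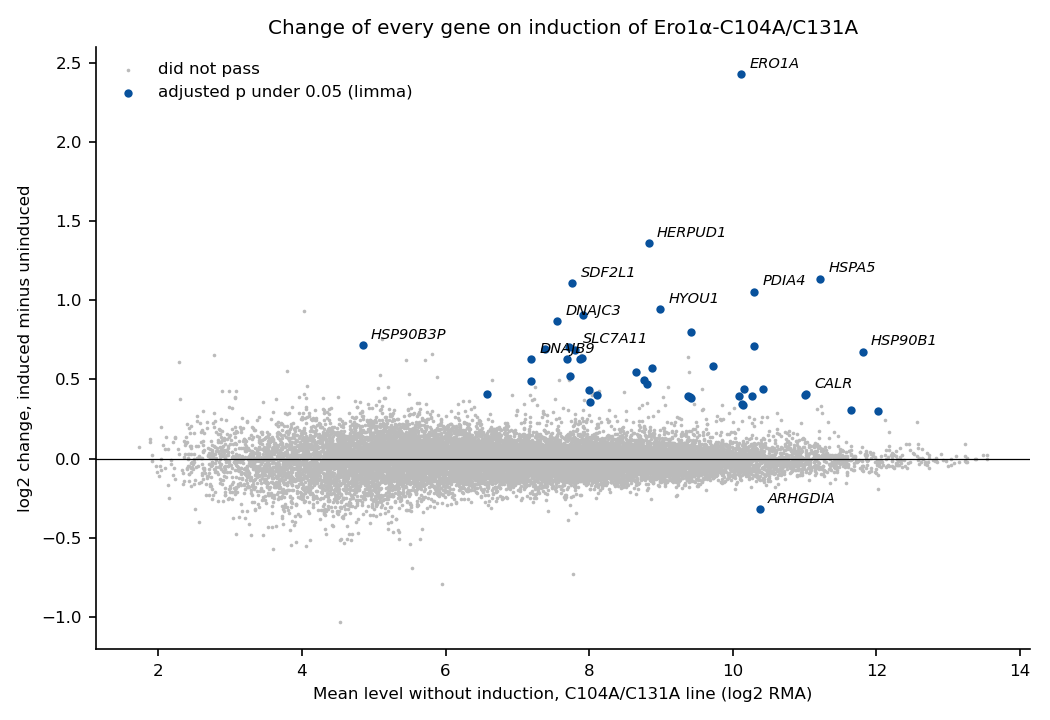
Each point is 1 of 18404 genes read by its brightest probe set, with the mean log2 level without induction on the horizontal axis and the log2 change on induction in the C104A/C131A line on the vertical axis. The 43 genes that rose and 1 that fell are blue, and ERO1A stands apart at 2.43.

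The 42 genes rose by 1.23-fold to 2.57-fold with a median of 1.45-fold, and in each the 3 induced arrays lay above the 3 uninduced ones. Among all 18404 genes, each read by its brightest probe set, 4.51% showed that separation upward and 6.97% downward, and 0.234% rose. Another 349 probe sets had group means at least 1.5-fold apart without passing, at a median level of 4.13, in the dim range where the points of the plot of change against level spread widest. Signal also depends on how well probes bind, so the plot ranks no gene's RNA against another's. It shows ARHGDIA as the lone blue point below 0.

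The leading genes separated the groups by far more than the replicate spread. HERPUD1 helps move misfolded proteins out of the ER for degradation, and its log2 level was 8.87, 8.73 and 8.87 on uninduced arrays A, B and C and 10.11, 10.21 and 10.24 on induced arrays A, B and C (95% interval of the fold 2.30 to 2.87, adjusted p = 1.87e-05). For HSPA5, the ER Hsp70, the values were 11.17, 11.25 and 11.22 uninduced and 12.30, 12.39 and 12.36 induced (interval 2.01 to 2.40, adjusted p = 1.52e-05). In both genes all induced arrays lay more than 1 log2 unit above all uninduced ones. SDF2L1, which keeps BiP clients in solution, went from 7.80, 7.73 and 7.76 to 8.93, 8.90 and 8.78, arrays A, B and C in order (interval 1.95 to 2.39, adjusted p = 3.62e-05). PDIA4 (ERp72) read 10.32, 10.32 and 10.26 without and 11.39, 11.34 and 11.33 with induction (interval 1.91 to 2.25, adjusted p = 1.52e-05). Induced array C was the lowest of its group for SDF2L1, while in PDIA4 the spread within each group was small beside the gap between them.

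HYOU1, the large Hsp70-related exchange factor of BiP, was among the tightest measurements. It read 9.0, 8.98 and 8.99 on the uninduced arrays and 9.96, 9.95 and 9.88 on the induced arrays, a rise of 1.92-fold (interval 1.77 to 2.08, adjusted p = 2.81e-05). DERL3, a derlin of the degradation channel, read 7.94, 7.90 and 7.89 uninduced and 8.86, 8.74 and 8.86 induced, and rose 1.88-fold (adjusted p = 3.62e-05). Neither gene had an induced array near the uninduced range. The BiP co-chaperone DNAJC3 (p58IPK), also an inhibitor of PERK, read 7.58, 7.49 and 7.60 uninduced and 8.35, 8.51 and 8.42 induced, and rose 1.83-fold (interval 1.57 to 2.13, adjusted p = 0.00696). Its interval is wider than that of HYOU1: the model shares 1 estimate of spread over the 4 groups, and DNAJC3 varied by 0.22 (SD, n = 3) among the uninduced WT arrays.

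**Figure D2:**
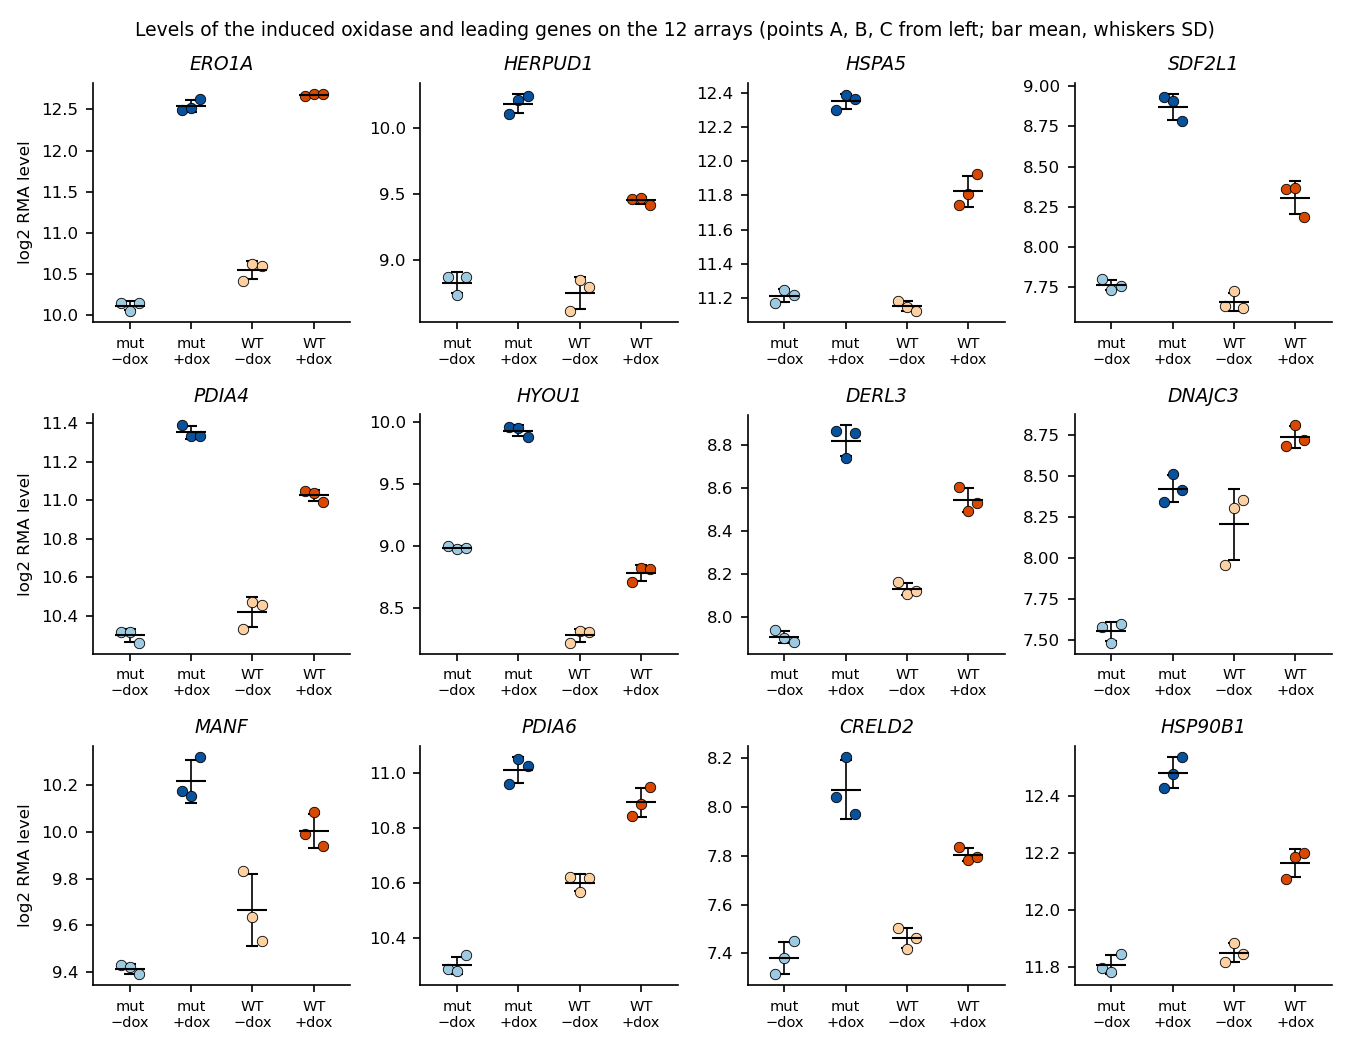
Each panel shows the log2 RMA level of 1 gene on the 12 arrays, with points for replicates A, B and C from left to right, a bar for the mean and whiskers for the SD; mut is the C104A/C131A line and dox is doxycycline. Every panel shows the 3 induced mutant arrays above the 3 uninduced mutant arrays, and the vertical axes differ between panels and do not start at 0.

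The BiP system was the list with the most risen members. It holds BiP, the ER Hsp90, J-domain co-chaperones and exchange factors, and 7 of 15 measured members rose (median log2 change 0.45, against -0.01 over all genes), with 11 of 15 separated upward. Over all genes, 0.234% rose, 4.51% were separated upward and 45.5% had a change above 0. The counts of this and the following lists stand against these shares. HSP90B1 (GRP94), the ER Hsp90, read 11.79, 11.78 and 11.85 uninduced and 12.43, 12.48 and 12.54 induced, and rose 1.60-fold (interval 1.48 to 1.73, adjusted p = 0.000315). DNAJB9 (ERdj4), a co-chaperone that returns BiP to IRE1, rose 1.54-fold (adjusted p = 0.0346), and SEC63, which brings BiP to the translocon, rose 1.32-fold (adjusted p = 0.0459). DNAJB11 (ERdj3), a secreted co-chaperone, read 9.26, 9.46 and 9.38 uninduced and 9.91, 10.03 and 10.10 induced, at 1.56-fold, short of the threshold (adjusted p = 0.0921). Its groups did not overlap, and its change had an SE of 0.11 where that of HSP90B1 had 0.05. DNAJC10 (ERdj5), a reductase that works with BiP, was at 1.37-fold (adjusted p = 0.106), HSPA13 at 1.21-fold and the exchange factor SIL1 at 1.04-fold. The probe set of HSP90B3P, a pseudogene copy of HSP90B1, rose 1.64-fold (adjusted p = 0.0158), which is uncertain because near-identical copies can share probes.

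In the protein disulfide isomerase family, 3 of 18 measured members rose, PDIA4, PDIA6 and P4HB (list median 0.10, 8 of 18 separated upward). PDIA6 (P5), an isomerase that works with BiP, read 10.29, 10.28 and 10.34 uninduced and 10.96, 11.05 and 11.03 induced, and rose 1.64-fold (interval 1.52 to 1.77, adjusted p = 0.000178). P4HB, the classical isomerase PDI and the main substrate of Ero1α, read 11.98, 12.01 and 12.05 uninduced and 12.33, 12.34 and 12.28 induced in its brightest probe set. This rise of 1.23-fold was the smallest among the 42 genes (interval 1.14 to 1.33, adjusted p = 0.0496), and the other P4HB probe set gave 1.29-fold (adjusted p = 0.0346). ERP44, which retains Ero1α in the early secretory pathway, was at 1.24-fold (adjusted p = 0.189), ERP29 at 0.992-fold and PDIA5 at 1.22-fold, and none of these passed. The transmembrane isomerases TMX1, TMX2, TMX3 and TMX4 lay at 1.01-fold, 0.999-fold, 1.07-fold and 1.11-fold. PDIA3, whose product works with the lectin chaperones, has no probe set of its own in the annotation. Without induced array B the list median was 0.06, and over the brighter members alone it was 0.29.

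None of the 13 other ER oxidases, peroxidases and thiol enzymes passed (median 0.02). ERO1B, the paralog of ERO1A, read 7.94, 7.79 and 7.91 uninduced and 8.43, 8.57 and 8.59 induced. The 3 induced values lay above the 3 uninduced ones and the ratio was 1.57-fold, but the SE of 0.11 left it short of the threshold (interval 1.32 to 1.87, adjusted p = 0.0718). Several peroxide-consuming enzymes and a further oxidase of the list lay near 1. PRDX4, a peroxiredoxin of the ER, was at 0.978-fold (interval 0.896 to 1.07), the peroxidases GPX7 at 0.992-fold (0.792 to 1.24) and GPX8 at 1.05-fold (0.856 to 1.30), and the sulfhydryl oxidase QSOX1 at 1.06-fold (0.940 to 1.19). Each of these intervals holds 1.

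In the calnexin cycle, which retains glycoproteins until they fold, only CALR passed of 15 measured members (median 0.19). Of the 15, 14 had a change above 0 (93.3%, against 45.5% of all genes) and 9 were separated upward (60%, against 4.51%). CALR, the soluble lectin calreticulin, read 11.0, 11.05 and 11.01 uninduced and 11.45, 11.41 and 11.41 induced, and rose 1.33-fold (interval 1.24 to 1.42, adjusted p = 0.00552). CANX, its membrane-bound relative calnexin, was at 1.17-fold with no overlap of the groups (adjusted p = 0.197). EDEM1, a mannosidase-like factor that ends the cycle, was at 1.30-fold (interval 1.11 to 1.52, adjusted p = 0.527). MAN1B1 was the member with a change below 0, at 0.929-fold.

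The degradation factors that rose belong to the HRD1 complex of the ER membrane, which draws misfolded proteins out for ubiquitination. They were 5 of 27, HERPUD1, DERL3, SEL1L, SYVN1 and DERL2 (list median 0.06, 0.09 without uninduced array C). SEL1L, the adaptor of the HRD1 ubiquitin ligase, read 7.93, 7.94 and 7.81 uninduced and 8.41, 8.69 and 8.48 induced, and rose 1.55-fold (adjusted p = 0.0152). SYVN1, the ligase HRD1 itself, rose 1.32-fold (adjusted p = 0.0346) and DERL2 1.31-fold (adjusted p = 0.0158). The change of SEL1L had an SE of 0.08, against 0.05 for DERL2. The segregase VCP was at 1.06-fold and its cofactors UFD1 and NPLOC4 at 0.981-fold and 0.941-fold, and DERL1 lay at 1.09-fold (adjusted p = 0.89). SELENOK, a selenoprotein of the complex, was at 1.34-fold (adjusted p = 0.0782).

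Of the 4 genes in the list of secreted ER stress proteins, 3 rose (median 0.55), with the membrane-bound CRELD1 among them. MANF, a survival factor kept in the ER by its C-terminal retention signal, read 9.43, 9.42 and 9.39 uninduced and 10.17, 10.15 and 10.32 induced, and rose 1.74-fold (interval 1.54 to 1.97, adjusted p = 0.00286). CRELD2 read 7.32, 7.38 and 7.45 uninduced and 8.04, 8.21 and 7.97 induced, and rose 1.61-fold (adjusted p = 0.00221), with induced array B the highest. CRELD1, its membrane-bound relative, rose 1.33-fold (adjusted p = 0.0169). CDNF, the paralog of MANF, lay at 1.12-fold, short of the threshold (adjusted p = 0.917).

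The sensors themselves showed no passing change. ERN1, which encodes IRE1α, was at 0.981-fold (interval 0.894 to 1.08) and ATF6 at 1.02-fold (0.938 to 1.11). EIF2AK3, which encodes PERK, was at 1.32-fold (interval 1.17 to 1.49, adjusted p = 0.145), with its induced arrays all above the uninduced ones. Of 17 sensors, proteases and transcription factors, 2 rose (median 0.01). XBP1, the factor whose mRNA IRE1 splices, read 10.03, 10.14 and 10.10 uninduced and 10.50, 10.46 and 10.49 induced, and rose 1.31-fold (interval 1.21 to 1.42, adjusted p = 0.0169). The probe set value does not separate spliced from unspliced XBP1 RNA. CREB3L2, an ER membrane factor related to ATF6, read 8.75, 8.71 and 8.84 uninduced and 9.30, 9.27 and 9.20 induced, and rose 1.41-fold (adjusted p = 0.00696).

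In the PERK-ATF4-CHOP branch 2 of 43 measured members passed (4.65%, against 0.239% of all genes). Of the 43, 37 lay above 0 and 18 were separated upward (41.9%, against 4.51% of all genes), with a median of 0.08. SLC7A11, the transport subunit of the cystine-glutamate exchanger, read 7.83, 7.79 and 7.78 uninduced and 8.29, 8.62 and 8.57 induced, and rose 1.61-fold (interval 1.39 to 1.87, adjusted p = 0.0192). DDIT3, which encodes the stress factor CHOP, read 7.74, 7.67 and 7.81 uninduced and 8.30, 8.35 and 8.14 induced, and rose 1.44-fold, just inside the threshold (adjusted p = 0.0496). Other landmarks of the branch lay close to 1. ATF4 was at 1.06-fold (interval 0.976 to 1.14), ATF3 at 1.03-fold (0.933 to 1.13), TRIB3, a pseudokinase induced by CHOP, at 1.04-fold (0.916 to 1.17), and the glutathione-degrading CHAC1 at 1.11-fold (1.02 to 1.20). ASNS, asparagine synthetase, was at 1.07-fold (interval 0.972 to 1.18) and PPP1R15A (GADD34), which restarts translation, at 0.942-fold (0.859 to 1.03). SLC1A4, a neutral amino acid transporter that is in none of the lists, rose 1.40-fold (adjusted p = 0.00825).

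Genes of protein entry into the ER had small changes, mostly upward. Of 24 signal recognition, translocon and signal peptidase genes, 23 had a change above 0 (95.8%, against 45.5% of all genes). Of the 24, 15 were separated upward (62.5%, against 4.51%). The list median was 0.17 and 3 genes rose: SEC63, the translocon-associated SSR1 (1.32-fold, adjusted p = 0.0178) and the signal peptidase subunit SEC11C (1.28-fold, adjusted p = 0.0386). SSR3, a partner of SSR1, had the largest change of the list at 1.46-fold and missed the threshold (adjusted p = 0.0568). SEC61A1, the channel itself, was at 1.19-fold (adjusted p = 0.137). All 11 oligosaccharyltransferase subunits, which attach N-glycans to entering chains, lay above 0, 8 of them were separated upward and 2 rose (median 0.16). MAGT1, a thiol-active subunit of that enzyme, read 9.73, 9.68 and 9.75 uninduced and 10.25, 10.34 and 10.33 induced, and rose 1.5-fold (interval 1.38 to 1.63, adjusted p = 0.00137). A second, dimmer MAGT1 probe set gave 1.10-fold, short of the threshold (adjusted p = 0.92). OSTC rose 1.36-fold (adjusted p = 0.0178), and the catalytic subunits STT3A and STT3B lay at 1.26-fold and 1.20-fold, neither past the threshold.

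Farther along the secretory pathway SEC24D, a cargo-binding subunit of the COPII coat, was the single risen gene of 24 (list median 0.08). It read 7.74, 7.64 and 7.70 uninduced and 8.28, 8.41 and 8.28 induced, and rose 1.55-fold (interval 1.40 to 1.71, adjusted p = 0.00376), while SEC24A, SEC24B and SEC24C lay at 1.06-fold, 0.987-fold and 1.13-fold. None of 24 COPI and retrieval genes passed, with 15 separated upward and a median of 0.11. TMED9, a cargo receptor, had the largest change among them at 1.27-fold. None of 21 genes of N-glycan precursor synthesis passed either (median 0.08), led by GFPT1, the entry enzyme of hexosamine synthesis, at 1.24-fold (adjusted p = 0.0844).

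A pair of sterol genes rose, from a list of 29 with 14 separated upward (median 0.10). HMGCS1, which makes the precursor of mevalonate, read 8.84, 8.77 and 8.79 uninduced and 9.26, 9.28 and 9.28 induced, and rose 1.38-fold (interval 1.27 to 1.51, adjusted p = 0.00939). IDI1, a later enzyme of the same pathway, read 9.45, 9.27 and 9.40 uninduced and 9.75, 9.79 and 9.78 induced, and rose 1.32-fold (adjusted p = 0.0396). SQLE and INSIG1, both regulated by sterols, were at 1.27-fold (adjusted p = 0.181) and 1.20-fold (adjusted p = 0.182).

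Of 27 genes of the oxidant response under NRF2, SLC7A11 rose, which this list shares with the ATF4 branch, and no other passed (median 0.00). HMOX1, heme oxygenase, was at 0.962-fold (interval 0.834 to 1.11), the quinone reductase NQO1 at 0.974-fold (0.845 to 1.12) and GCLM, of glutathione synthesis, at 1.03-fold (0.939 to 1.12). Thioredoxin reductase TXNRD1 was at 0.984-fold (0.899 to 1.08) and sulfiredoxin SRXN1 at 0.911-fold (0.806 to 1.03). All these intervals hold 1, and a rise of 1.5-fold lies outside each of them.

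The remaining lists, of genes outside the ER, IRE1 decay substrates, ER calcium and autophagy, had medians near that of all genes. No member passed among 19 cytosolic heat shock proteins (median -0.01), 21 hypoxia and glycolysis genes (0.01), 20 apoptosis regulators (-0.03), 25 cell cycle genes (-0.04) and 21 immediate early genes (0.00). In 8 of the 25 cell cycle genes the 3 induced arrays lay below the 3 uninduced ones, as in 3 each of the heat shock, hypoxia and immediate early genes and 1 apoptosis regulator, against 6.97% of all genes. The 6 measured mRNAs described as IRE1 decay substrates had a median of 0.04, and the usual reference substrate BLOC1S1 has no probe set of its own in the annotation. In the ER calcium list 0 of 17 passed (median 0.03, 0.00 without induced array B), and ATP2A2, the ER calcium pump, lay highest at 1.22-fold. WIPI1, an early autophagy factor, was the only riser of 19 autophagy genes at 1.35-fold (adjusted p = 0.0401; list median -0.04), and 4 of the 19 were separated downward.

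**Figure D3:**
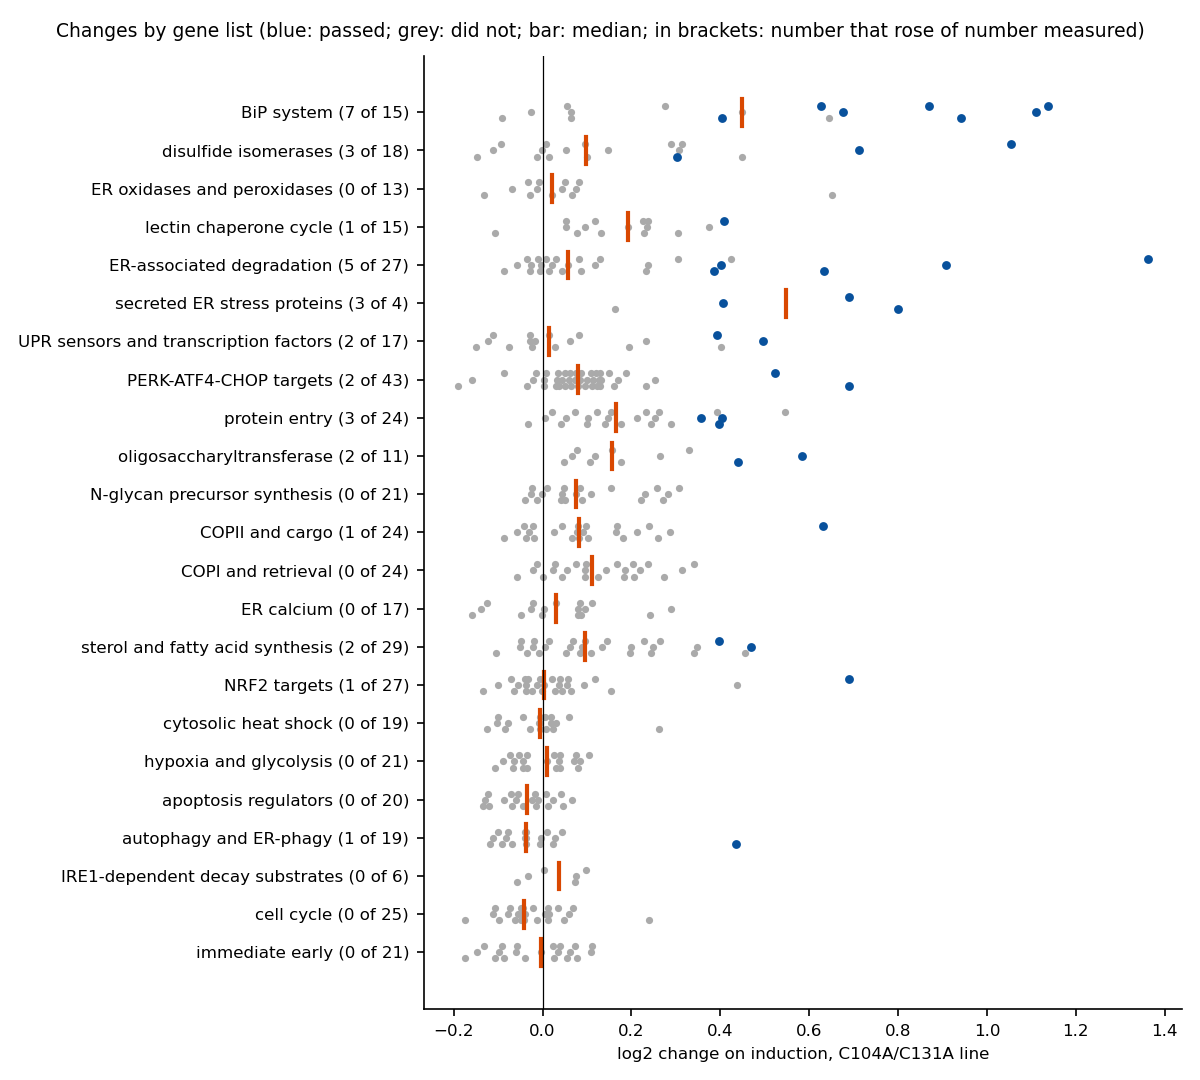
Each point is the log2 change of 1 gene on induction in the C104A/C131A line, in 23 lists of related genes; blue genes rose, grey genes did not pass, and the orange bar is the median. The BiP system and the secreted ER stress proteins have medians of 0.45 and 0.55, and lists of cytosolic, hypoxia and cell cycle genes have medians near 0. The lists share some members, and ERO1A is in none.

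Besides HSP90B3P and SLC1A4, 9 risen genes belong to none of the lists, and they are named here after their values were seen. PLPP5, a lipid phosphatase, led them: it read 7.79, 7.63 and 7.73 uninduced and 8.41, 8.48 and 8.36 induced, and rose 1.63-fold (interval 1.47 to 1.80, adjusted p = 0.00137). Several act in or around the ER, among them SLC33A1, its acetyl-CoA transporter (1.46-fold, adjusted p = 0.0169), SLC35B1, its ATP carrier (1.27-fold), the proline isomerase PPIB (1.24-fold), the secreted protein MYDGF (1.31-fold) and the calcium-binding nucleobindin NUCB2 (1.55-fold). The scaffold protein ERC1 rose 1.49-fold, SLFN11 1.36-fold and the RNA-binding protein SND1 1.27-fold.

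ARHGDIA was the lone gene that fell. It read 10.35, 10.41 and 10.36 uninduced and 10.08, 10.10 and 9.99 induced, at 0.801-fold (interval 0.741 to 0.866, adjusted p = 0.0449). Another ARHGDIA probe set gave 0.868-fold, short of the threshold (adjusted p = 0.619). The ARHGDIA call was kept in 1 of the 12 fits that leave out 1 array.

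Promoter sequences are shown for 9 risen genes because they carry textbook elements of the unfolded protein response, through which ATF6 and XBP1 are known to act. They come from RefSeq windows on GRCh38.p14 that run from 250 bases before the annotated start to 50 after it; 14228 tested genes and 37 of the 42 risen ones had such a window. HSPA5 is given in full upstream of its start and the others around the match, all 5′ to 3′ on the gene's strand, with the fixed letters of a match in capitals.
HSPA5: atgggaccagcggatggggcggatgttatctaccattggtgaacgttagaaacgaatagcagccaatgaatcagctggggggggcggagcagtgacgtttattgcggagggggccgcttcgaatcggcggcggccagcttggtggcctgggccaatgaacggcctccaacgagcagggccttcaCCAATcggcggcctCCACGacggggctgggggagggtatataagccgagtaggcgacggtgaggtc
HSP90B1: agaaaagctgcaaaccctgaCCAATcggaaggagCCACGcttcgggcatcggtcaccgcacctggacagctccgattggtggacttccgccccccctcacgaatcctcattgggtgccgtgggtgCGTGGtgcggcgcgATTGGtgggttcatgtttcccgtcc
PDIA6: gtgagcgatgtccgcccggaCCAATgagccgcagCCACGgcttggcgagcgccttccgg
CRELD2: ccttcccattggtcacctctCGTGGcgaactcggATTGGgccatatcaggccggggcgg
CALR: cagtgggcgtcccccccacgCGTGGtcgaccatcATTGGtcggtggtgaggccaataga
XBP1: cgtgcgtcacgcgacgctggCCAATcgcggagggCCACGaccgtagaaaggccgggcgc
HERPUD1: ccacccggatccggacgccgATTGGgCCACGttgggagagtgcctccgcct
SDF2L1: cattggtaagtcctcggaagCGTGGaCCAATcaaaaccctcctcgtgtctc
HYOU1: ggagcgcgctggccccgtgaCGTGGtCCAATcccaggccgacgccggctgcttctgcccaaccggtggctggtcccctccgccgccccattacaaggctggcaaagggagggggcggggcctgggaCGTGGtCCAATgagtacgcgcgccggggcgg

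On the plus strand lie the stretches of HSP90B1 (chr12:103930196-103930359), CRELD2 (chr22:49918534-49918592), CALR (chr19:12938364-12938422), HERPUD1 (chr16:56932005-56932055) and SDF2L1 (chr22:21642094-21642144). Those of HSPA5 (chr9:125241344-125241593), PDIA6 (chr2:10812833-10812891), XBP1 (chr22:28800583-28800641) and HYOU1 (chr11:119057254-119057410) lie on the minus strand. Each is upstream of the start that RefSeq annotates, outside the transcript.

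The ER stress element ERSE was searched as CCAAT and CCACG with any 9 bases between them, and ERSE-II as ATTGG and CCACG with any 1 base between them, on both strands. Only exact matches were counted, so copies with other letters are missed. ERSE occurs in 0.0769% of all 35116 windows and ERSE-II in 0.0541%. HSPA5 has an exact ERSE 66 to 48 bases before the start, PDIA6 at 86 to 68 and XBP1 at 52 to 34, all on the gene's strand. CRELD2 (80 to 62 bases before the start) and CALR (225 to 207) have it on the opposite strand, where it reads CGTGG, 9 bases and ATTGG. HSP90B1 has one on each strand, at 194 to 176 and 89 to 71. ERSE-II lies 117 to 107 bases before the start of HERPUD1 on its own strand and 188 to 178 before that of SDF2L1 on the other. HYOU1 holds 2 copies, at 185 to 175 and 79 to 69, and the first overlaps a UPRE, searched as TGACGTGG, at 188 to 181.

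Among all 18404 genes, 0.234% rose and 4.51% were separated upward. Of 19 tested genes with an ERSE in the window, 6 rose (31.6%) and 13 were separated upward (68.4%). Their median log2 change was 0.32, against -0.01 for genes without it. The other ERSE genes include ERO1B, at a log2 change of 0.65, FICD, the enzyme that AMPylates BiP, at 0.50, TRIM5 at 0.49, SERP1, a translocon-associated protein, at 0.32, and CANX at 0.23, none of which passed. GLRA2, a glycine receptor subunit, has an ERSE and lay lowest at -0.27. Of 17 genes with ERSE-II, 3 rose (17.65%), 14 did not pass and 5 were separated upward (29.4%), with a median of 0.03. The UPRE (0.729% of windows) occurs in 159 tested genes, with a median of 0.02. Of these, 1 rose (HYOU1, 0.629%) and 28 were separated upward (17.6%). CARE, the C/EBP-ATF response element searched as TGATGNAA (3.62% of windows), occurs in 511 tested genes, with a median of -0.01. Of these, 3 rose (HERPUD1, CREB3L2 and SLC1A4, 0.587%) and 32 were separated upward (6.26%). A match describes letters in the window and does not show binding.

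The WT line shows how far the same genes moved when wild-type Ero1α was induced. Its 6 arrays share none with the comparison above, though the 4 groups share 1 estimate of spread. There 16 probe sets (0.0495%) passed, as did 15 genes by their brightest probe set (0.0815%), and ERO1A rose 4.37-fold. Of the 42 genes that rose in the C104A/C131A line, 13 rose in the WT line too, all 42 had a WT change above 0 and 39 had WT groups separated upward, against 5.24% of all genes. Their median log2 change was 0.53 in the C104A/C131A line, on whose arrays they were chosen, and 0.33 in the WT line. HSP90B3P, HMGCS1 and IDI1 were the 3 whose WT groups overlapped.

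No probe set passed the test of the difference between the lines' responses (0 of 32321, or 0%; smallest adjusted p = 0.309 in limma, 1493 at an unadjusted p under 0.05, and 0 in a two-way analysis of variance). None of the following differences can therefore be called particular to the deregulated oxidase. HERPUD1 read 8.61, 8.85 and 8.79 uninduced and 9.47, 9.47 and 9.42 induced in the WT line, a 1.63-fold rise, and the mutant response exceeded it by 0.66 log2 (unadjusted 95% interval 0.43 to 0.89). HSPA5 rose 1.59-fold there, a difference of 0.46 (0.29 to 0.64), and DERL3 1.33-fold, a difference of 0.50 (0.33 to 0.67). HMGCS1 read 8.76, 8.82 and 8.82 uninduced and 8.71, 8.86 and 8.87 induced, a WT ratio of 1.01-fold and a difference of 0.45 (0.28 to 0.63). Other genes had nearly equal changes in both lines: SEC24D 1.55-fold and 1.46-fold (difference 0.08, -0.13 to 0.29), CREB3L2 1.41-fold and 1.40-fold (0.01, -0.16 to 0.19) and XBP1 1.31-fold and 1.37-fold (-0.06, -0.22 to 0.11).

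Starting levels of HYOU1 and DNAJC3 lay apart in the lines, a difference that was not tested here. HYOU1 read 8.22, 8.32 and 8.31 on the uninduced and 8.71, 8.83 and 8.82 on the induced WT arrays, so the uninduced C104A/C131A arrays already lay above the induced WT arrays. DNAJC3 was the reverse, with 7.96, 8.30 and 8.36 and 8.68, 8.81 and 8.72 in the WT line, and its induced C104A/C131A arrays lay near the upper uninduced WT values.

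**Figure D4:**
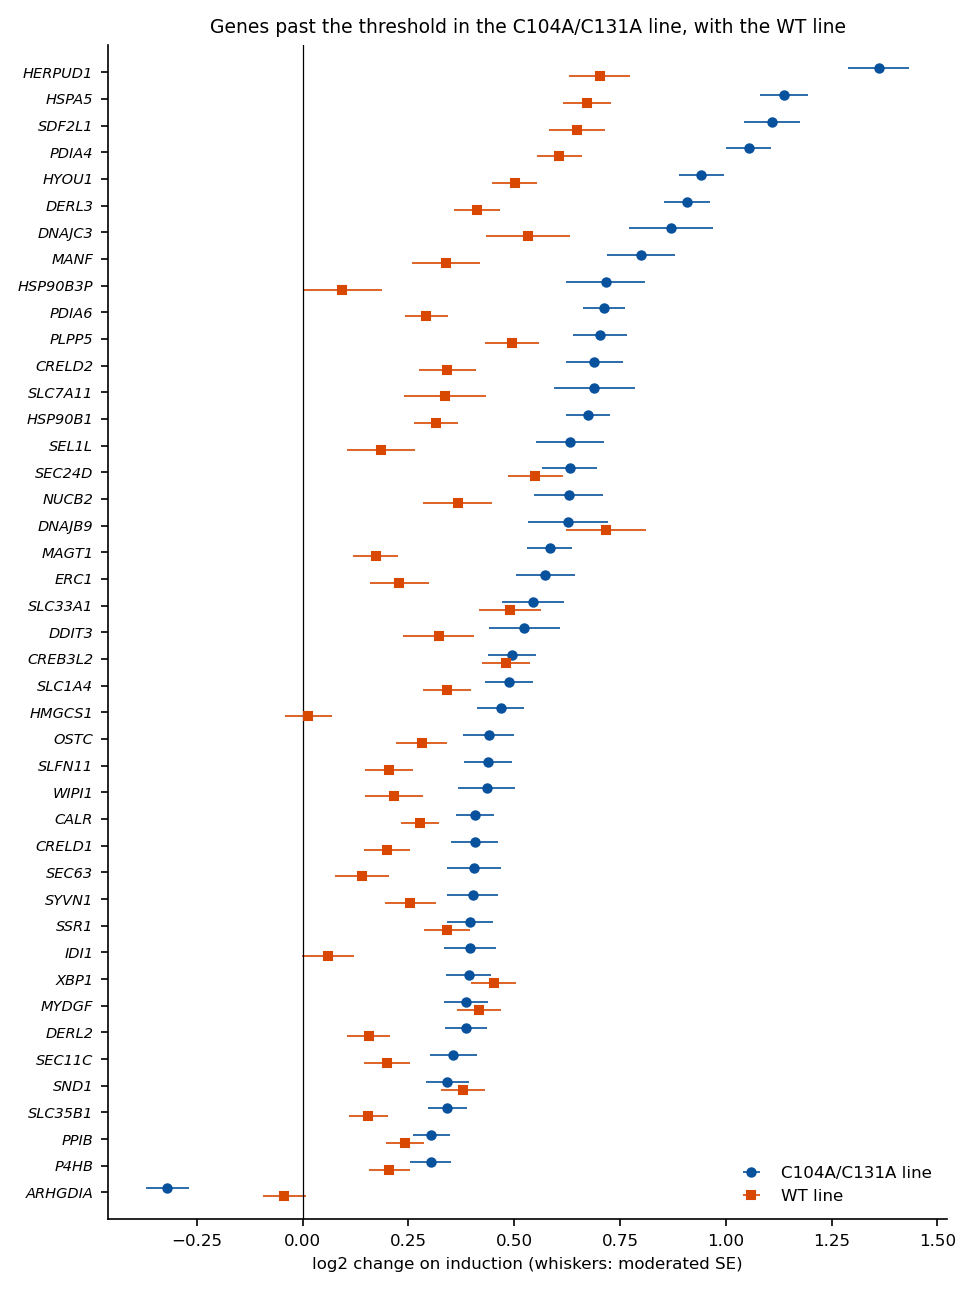
Log2 changes on induction with moderated SE are drawn for the 43 genes other than ERO1A that passed in the C104A/C131A line (blue circles), beside the WT line (orange squares). HERPUD1 lies at 1.36 and 0.70, while SEC24D, CREB3L2, XBP1, MYDGF and SND1 are among the genes whose whiskers overlap between the lines.

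With 1 C104A/C131A array left out, between 20 and 36 probe sets passed, 19 to 31 of them among the 56, and without the pair of extreme arrays 20 passed, 17 of them among the 56. ERO1A, HERPUD1, HSPA5, SDF2L1, PDIA4, HYOU1, DERL3, MANF, PDIA6, PLPP5, CRELD2, HSP90B1, SEC24D, MAGT1, CALR and 1 probe set with several symbols passed whichever of the 12 arrays was left out. Of these 16, the first 9 named also passed with the C104A/C131A arrays fitted alone, and the others did not. Every other call named above was lost in at least 1 of these 12 fits. DNAJC3 was kept in 11 of them, and CREB3L2 and SLC1A4 in 10. DDIT3, SYVN1, SEC63 and SEC11C were kept in 2, and DNAJB9, WIPI1, IDI1, SND1 and PPIB in 1. The brightest P4HB probe set was kept in 0. Of the 12 fits, 6 leave out a C104A/C131A array. XBP1, DERL2, MYDGF and SLC35B1 were kept in 0 of these 6. SLC7A11, HSP90B3P, OSTC, SSR1, SLC33A1, CRELD1 and SLFN11 were kept in 1 of the 6.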

How the data were processed

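Affymetrix arrays were hybridised with labelled total RNA of 12 samples (250 ng each), per the labels' protocols. The authors deposited log2 levels, for which the submitters' processing notes name RMA; which software ran it is not given in the sources used. The log2 base was read from the range, 1.055 to 14.096. Because RMA equalises the arrays, a common shift of most genes would go unseen, and the number of arrays limits the precision. The series' design text gives a two-way layout of line and induction, so limma 3.58.1 in R 4.3.3 fitted 4 group means over all 12 arrays (lmFit, eBayes), with two-sided tests and Benjamini-Hochberg adjustment over 32321 probe sets at 0.05. Intervals are 95%.

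Platform annotation gave 1 gene symbol to 19158 probe sets, several to 1388 and none to 11775, and 18373 of 18404 genes matched RefSeq. In lists, the brightest probe set stands for a gene (637 genes had more than 1).

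Named genes were ERO1A, the 15 largest increases and 10 largest decreases past the threshold without overlap, up to 4 passing members per list, and a fixed set of stress genes; others are named for promoter motifs or as list members shown for comparison, and 1 gene of the set is not reported here. The members, lists and tests were chosen with earlier results of these data known. Replicates are labelled biological, but no label says they were separate cultures, so p-values measure the spread between these samples, which may be technical. Steps were tested on simulated data. Alternative settings used a replicate block, arrays centred on medians, dim probe sets left out, 1 probe set per gene, a trended robust prior, ordinary analysis of variance, the C104A/C131A arrays alone and leaving out each array. Figures were drawn with matplotlib 3.10.9.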

Additional observations from a re-analysis of the deposited data

How the results depend on the processing

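Against 56 probe sets in the C104A/C131A line, 26 passed with arrays centred on their medians, 11 with that line's 6 arrays fitted alone, 99 with dim probe sets left out (94 higher), 97 with a trended robust prior, 63 in the analysis of variance and 60 with 1 probe set per gene. That last fit shares 44 of its calls with the 56 and adds 16 genes, among them ERO1B, DNAJB11, SSR3 and FICD. Without WT uninduced array A and C104A/C131A induced array B, a choice made after seeing the data, 20 passed. Leaving out single arrays gave 20 to 54: 21, 20 and 23 without C104A/C131A uninduced arrays A, B and C, 36, 23 and 21 without induced arrays A, B and C, and 42 to 54 without a WT array. The cause was not tested, though several of these fits hold fewer arrays or probe sets by construction. With the replicate letter as a block 33 passed, 31 of them among the 56. The letters were not taken to pair the arrays, since same-letter deviations in the C104A/C131A line correlated with r of 0.101, -0.0142 and 0.0275, and 2 of its 6 arrays correlated best with their own letter. In the WT line r was 0.262, 0.0463 and 0.142, with 4 of 6 arrays best with their own letter. Scores of the WT arrays on the leading component were also alike by letter. Uninduced and induced, they were 25.7 and 17.1 for A, -9.80 and -6.01 for B, and -15.9 and -11.1 for C. Whether the letter marks an effect shared by the WT arrays was not tested. The test of the difference between the lines gave 0 in every fit that allows it, the block included, with smallest adjusted p from 0.0524 (dim probe sets left out) to 0.784. Gene by gene, 974 of 1298 results of alternatives kept direction and side of the threshold, 303 lost the threshold, 9 gained it and 12 changed sign, all in genes that did not pass. Without that pair of arrays, ERN1 was at 0.0098 log2, GCLM at -0.0145 and GPX7 at 0.0837. With single arrays left out, ATF6 ranged from -0.0003333 to 0.0447, ERN1 from -0.0697 to 0.0098, GCLM from -0.0145 to 0.0635, GPX7 from -0.103 to 0.0837, NQO1 from -0.0733 to 0.00167, PRDX4 from -0.0707 to 0.0158 and TRIB3 from -0.00833 to 0.121. Low signal limits the dim probe sets: the 349 with means at least 1.5-fold apart that did not pass had a median level of 4.13.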

Other observations

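Another 9 probe sets that rose in the C104A/C131A line have no gene symbol in the annotation, with folds of 1.30 to 2.26. Their levels ran from 2.865 to 12.38 log2. None of these probe sets passed in all 12 fits that leave out 1 array, and the one at 2.26-fold passed in 7. A further 2 carry several symbols and were at 1.36-fold and 1.5-fold, and neither is named here because the probes cannot assign the signal to 1 gene.

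When each gene was tested by 1 probe set, the 16 added genes included further parts of the secretory pathway. SSR3 and SSR2 of the translocon-associated complex were at 1.46-fold (adjusted p = 0.018 in that fit, limma) and 1.19-fold (0.0464), the retrieval receptor TMED10 at 1.24-fold (0.0386) and the cargo receptor SURF4 at 1.22-fold (0.0293). In the same fit STT3A, a catalytic subunit of the oligosaccharyltransferase, was at 1.26-fold (0.0232), UGDH, which makes UDP-glucuronate, at 1.36-fold (0.0233) and NANS, of sialic acid synthesis, at 1.28-fold (0.0388). Their adjusted p over all probe sets was 0.0568 to 0.103, and their folds are the same in both fits.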
